A study of Arabidopsis thaliana with 4 samples.

Results

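The introns of the chloroplast genome of Arabidopsis thaliana were measured in RNA that an HA antibody recovered from stroma, the soluble fraction of the chloroplast. An intron was cut into 50 nt windows on a fixed grid over the genome, and a window was kept when it lay wholly inside an intron of a protein-coding or tRNA gene. Gaps between trans-spliced exons and the second copy of the inverted repeat were left out. This gave 317 windows, of 2564 in all, in 20 introns of 18 genes. The introns measured 512 to 2559 nt; 6 lay in tRNA genes and 14 in protein-coding genes, and 5 of the 20 lay in the inverted repeat. Of the 317 windows, 31 overlapped matK, a gene that lies inside the trnK intron.

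The study asked whether dPPRrbcL associates with the mRNA of rbcL, the gene of the large Rubisco subunit, and which other RNAs come down with it. PPR stands for pentatricopeptide repeat, the repeated unit of a large family of plant proteins that bind RNA in chloroplasts and mitochondria. Both groups were plants of 2 weeks: 2 libraries from plants labelled transgenic dPPRrbcL, and 2 from the wild type Col-0 (WT), whose extracts went through the same HA immunoprecipitation and give its background. The labels name neither the promoter of the transgene nor the number of lines, and nothing says that replicates came from separate plants, so p-values measure only the spread between these libraries.

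Most chloroplast introns are group II introns, relatives of self-splicing ribozymes that in plants no longer splice without proteins. Those proteins include nucleus-encoded factors, PPR proteins among them, and the maturase MatK, which is encoded within the trnK intron and is known from tobacco to associate with most introns of subgroup IIA. The trnL intron is a group I intron, a different kind of ribozyme. Coverage in an intron comes from unspliced RNA and from excised introns, which cannot be told apart here, and the deposited coverage is not split by strand.

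The 5′ ends of 7 introns are shown because the ratio of intron to exon coverage in these 7 passed the test between the groups. Each line gives 30 nt in the direction of the gene from the chloroplast sequence (Pt) of the RefSeq assembly TAIR10.1, with the first 5 bases in capitals.
petB, Pt:74847-74876, plus strand: GTGTGacttgttagaattgaccctatggat
atpF, Pt:12624-12653, minus strand: GTGTGagttgttcatttcaagaataggctg
clpP intron 1, Pt:71782-71811, minus strand: GTGCGacttgtcagatatatcgggctatat
clpP intron 2, Pt:70623-70652, minus strand: TGGCGccaatgagtttttttattttcgaga
ycf3 intron 1, Pt:44436-44465, minus strand: GCGATttgattatcattattttttttctcg
trnK, Pt:4281-4310, minus strand: GTGCGactagcatcttttacacatttgtat
rps12, Pt:98532-98561, minus strand: GTGCGttgtagattcttatccaagacttgt
The motif searched at the first 5 bases was GTGNG, on the strand of the gene. Of 19 group II introns, 13 started with it, 7 as GTGCG and 6 as GTGTG, and the annotated starts of the other 6, among them clpP intron 2 and ycf3 intron 1, did not. In 2 of these 6 the motif began within 5 nt of the annotated start, 2 nt before it in ycf3 intron 1 and 1 nt after it in rpl2. The annotated 5′ ends may therefore be off by a few bases in some introns, which touches the count of motifs, the printed ends and the values beside the splice sites. On both strands of the whole sequence 0.128% of all 5-mers were GTGNG, and 10.5% of all 50 nt windows held it on either strand. The last 2 bases were AC in 7 introns and AT in 7 of the 20.

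A few windows mark the ends of the range of change described below and are printed whole, in the direction of the gene. On library totals the atpF windows had the highest log2 changes of all intron windows, and the petB windows the lowest.
atpF, Pt:12351-12400, minus strand: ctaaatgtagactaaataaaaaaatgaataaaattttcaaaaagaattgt
atpF, Pt:12301-12350, minus strand: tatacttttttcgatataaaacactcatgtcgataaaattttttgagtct
petB, Pt:74901-74950, plus strand: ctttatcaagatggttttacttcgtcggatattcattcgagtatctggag
petB, Pt:74851-74900, plus strand: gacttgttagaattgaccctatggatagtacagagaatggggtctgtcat
The atpF windows had a GC content of 16.0% and 24.0% and the petB windows 38.0% and 42.0%, against a median of 34.0% over the intron windows tested. GC content was set against the log2 change over the 303 tested windows, which share libraries and neighbouring reads. Pearson r was -0.17 and Spearman rho -0.14 when libraries were scaled to their totals. By the median-ratio scaling used below they were -0.34 and -0.31. Of the 303 windows, 66 had a WT mean under 10 and passed the filter described below through their dPPRrbcL coverage. The introns of trnI and trnA, which lie between the rRNA genes, had a GC content of 48.8% and 51.1%. By median ratio 14 of 14 and 14 of 15 of their windows were lower. No relation of GC content to change is therefore read from these values.

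The libraries were of similar size and of different composition. A chloroplast position was read 12917 and 10373 times on average in the WT libraries and 12167 and 12762 times in the dPPRrbcL libraries. Genes for rRNA held 98.6% ± 0.247 (SD, n = 2) of the coverage in WT and 90.9% ± 0.790 (SD, n = 2) in dPPRrbcL. With totals this close, more intron RNA in the precipitate and less rRNA cannot be told apart. How many reads a library held is unknown, so no counting interval was computed.

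Introns made up a small part of every library and a larger part of the dPPRrbcL libraries. They held 0.150% ± 0.0207 (SD, n = 2) of all coverage in WT and 0.807% ± 0.0664 (SD, n = 2) in dPPRrbcL, a ratio of 5.37. The groups did not overlap, although an exact two-sided permutation test of 2 libraries against 2 cannot give a p below 0.333. The introns of trnI and trnA, tRNA genes that lie between the rRNA genes and are transcribed with them, supplied 67.8% ± 0.0226 (SD, n = 2) of the intron coverage in WT and 53.4% ± 0.333 (SD, n = 2) in dPPRrbcL. Without them the share was 0.0484% ± 0.00662 in WT and 0.376% ± 0.0336 in dPPRrbcL (SD, n = 2 each). Of the coverage that remained when rRNA and tRNA genes were set aside, the introns of protein-coding genes held 3.20% ± 0.193 (SD, n = 2) in WT and 3.53% ± 0.00664 (SD, n = 2) in dPPRrbcL. On that denominator the share differed by a factor of 1.10 only.

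Single positions were sparse in WT. The median intron window was covered by 26.1 and 24.7 reads per nucleotide in the WT libraries, and by 370 and 346 in the dPPRrbcL libraries. Positions without any read made up 7.67% ± 0.598 (SD, n = 2) of the introns in WT and 0.155% ± 0.219 (SD, n = 2) in dPPRrbcL. Over all positions of the genome these shares were 17.5% and 1.23%, so fewer intron positions than genome positions were at 0 in either group.

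The level of single introns differed by orders of magnitude within a library. The trnA intron was the highest, with 1582 and 1472 reads per nucleotide in WT and 7100 and 6879 in dPPRrbcL. The rps16 intron was the lowest, with 0.559 and 0.793 in WT and 17.9 and 13.0 in dPPRrbcL. The exons of rps16, a gene for a protein of the small ribosomal subunit, had no read in WT replicate 2. Its intron also averaged under 10 reads per nucleotide over the 4 libraries. Either was enough to leave rps16 out of the test of the ratio of intron to exon. In dPPRrbcL its ratio was 0.950 and 0.737.

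Every intron window tested rose when libraries were scaled to their totals, and so did nearly the whole genome. Windows were tested on log2(scaled coverage + 10 reads per nucleotide) if their mean coverage over the 4 libraries was at least 10, with limma and Benjamini-Hochberg adjustment over all 2271 windows that passed. Of the 317 intron windows 303 passed that filter, and the 14 others lay in the introns of rps16 (11) and rpl16 (3). All 303 were higher in dPPRrbcL at an adjusted p under 0.05, beside 97.4% of all windows tested, and 0 were lower, also at an unadjusted p under 0.05, beside 0.572%. The median log2 change was 2.93 in introns and 2.99 over all windows. Of the 303, 66 had a WT mean under 10 and passed through their dPPRrbcL coverage, so that they had to differ. The count of 303 is near the background and says nothing particular of introns.

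Relative to the median window, more intron windows fell than rose, and most of those that fell lay in tRNA genes. Scaling by the median ratio over windows moved the log2 difference between the groups by 3.76 compared with the library total, and by less in windows of low coverage, where the pseudocount weighs more. On that scale 35 of 303 intron windows rose and 96 fell in dPPRrbcL at an adjusted p under 0.05 (limma), beside 19.5% higher and 19.0% lower of all windows tested. In percent, 11.6% of the intron windows were higher and 31.7% lower. The median log2 change was -0.21 in introns, 0.17 over all windows, 0.16 over the exons of intron-containing protein-coding genes, 0.21 over protein-coding genes without introns and 0.41 over spacers between genes. Among the exon windows of intron-containing genes 27 of 157 were higher and 16 lower. A scaling to coverage that leaves out rRNA and tRNA genes gave 139 higher and 44 lower intron windows, beside 55.3% and 7.93% of all windows tested, with medians of 0.57 in introns and 0.85 over all windows. All 96 lower windows had a WT mean of at least 10, and so had 13 of the 35 higher ones.

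The counts differed between genes. In the 6 tRNA introns 63 of 112 windows were lower and 0 higher by median-ratio scaling, among them 14 of 14 in trnI, 14 of 15 in trnA, 11 of 13 in trnG and 9 of 11 in trnV, the genes of the isoleucine, alanine, glycine and valine tRNAs. The exons of all 6 tRNA genes had negative log2 changes on that scale too, so the fall there was not confined to introns. These were -1.81 (trnI), -1.83 (trnA), -1.30 (trnG), -1.38 (trnV), -1.58 (trnL) and -1.67 (trnK), and they were not tested. All 87 rRNA windows tested were lower by median ratio too, and trnI and trnA lie between the rRNA genes. Of the 6 windows tested in tRNA exons over the whole genome, 2 were higher and 0 lower. A fall general to tRNA genes is therefore not read from these values. The 2 introns of clpP, which encodes the proteolytic subunit of the Clp protease, held 12 lower and 0 higher windows of 27. In photosynthesis genes, 22 of 104 windows were higher and 21 lower. The higher ones lay chiefly in atpF (9 of 14), which encodes a membrane subunit of the ATP synthase, and in ycf3 intron 2 (8 of 15), whose gene encodes an assembly factor of photosystem I. Of these, 1 of the 9 in atpF and 6 of the 8 in ycf3 intron 2 had a WT mean under 10. The lower ones lay in petB (9 of 16), the gene of cytochrome b6, ndhA (6 of 21), petD (3 of 13), atpF (2 of 14) and ndhB (1 of 12). The introns of ribosomal protein genes had 7 higher and 0 lower windows of 45, and that of rpoC1, a gene for an RNA polymerase subunit, had 6 higher and 0 lower of 15. All of these 7 and 6 windows (6 in rpl16, 1 in rps16 and 6 in rpoC1) had a WT mean under 10 and passed the filter through their dPPRrbcL coverage, so nothing is read from their counts. By intron class, 9 of 137 windows were higher and 56 lower in subgroup IIA, and 26 of 157 were higher and 37 lower in subgroup IIB. Most of the 26 had a WT mean under 10: 6 each in rpl16, rpoC1 and ycf3 intron 2, and 1 each in rps16, petD and ndhA. They passed the filter through their dPPRrbcL coverage, so nothing is read from the higher count of subgroup IIB. All 9 higher windows of subgroup IIA lay in atpF. The 56 lower ones of subgroup IIA lay in trnI (14), trnA (14), trnK (12), trnV (9), clpP intron 2 (5) and atpF (2). The introns of rpl2 and rps12 had 0. The lower count of subgroup IIA is thus mostly that of the tRNA introns given above. In the group I intron of trnL 3 of 9 were lower and 0 higher.

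**Figure D1:**
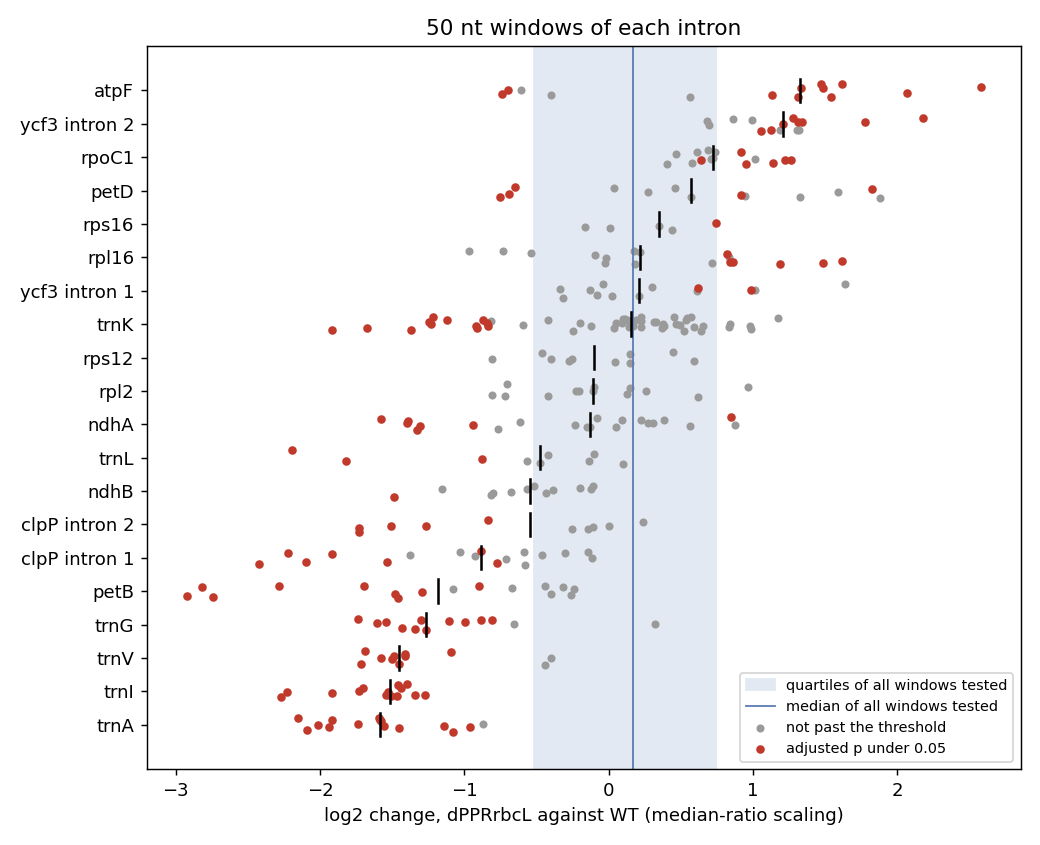
Log2 change of dPPRrbcL against WT (median-ratio scaling) for each 50 nt window tested, by intron; each point is 1 window, red points passed an adjusted p under 0.05 in limma, black bars are the median of the intron, and the blue line and band are the median and quartiles of all 2271 windows tested. The windows of trnA, trnI, trnV and trnG lie mostly left of the band, and those of atpF and ycf3 intron 2 mostly right of it. Of the 15 windows of ycf3 intron 2, 10 had a WT mean under 10 and passed the filter through their dPPRrbcL coverage, as did 1 of 14 in atpF.

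The windows with the highest and the lowest change show the span. In the atpF window at 12351 to 12400, coverage was 13.9 and 3.96 reads per nucleotide in WT, and 1005 and 763 in dPPRrbcL, replicate 1 first here and in all pairs of values. Both dPPRrbcL libraries lay far above both WT libraries, a log2 difference of 5.54 (SE 0.29, limma adjusted p = 9.32e-10) on library totals and 2.58 (SE 0.51, limma adjusted p = 0.0239) by median ratio. The WT mean of this window was under 10. It passed the filter through its dPPRrbcL coverage and had to differ, so nothing is read from these p-values. In the petB window at 74901 to 74950 the same libraries had 1331, 1378, 2705 and 2450 reads per nucleotide. This was the lowest rise, at 0.82 on the log2 scale (SE 0.26, limma adjusted p = 0.00821) on library totals, while the median-ratio value was -2.92 (SE 0.15, limma adjusted p = 0.00245). Without dPPRrbcL replicate 1 the rise of this window no longer passed (0.71, limma adjusted p = 0.107), nor did it without dPPRrbcL replicate 2 (0.92, limma adjusted p = 0.0641). The neighbouring petB window at 74851 to 74900 had a change of 0.92 and lost its call without dPPRrbcL replicate 1 (0.77, limma adjusted p = 0.0537).

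The other windows named at the ends of the range came from few introns, with at most 2 windows named per intron. Further atpF windows were left out by that limit, such as the one at 12101 (5.08 on library totals). By library totals, high changes were found in atpF (5.21 at 12301), petD (4.83 at 77001 and 4.75 at 76701), ycf3 intron 1 (4.75 at 43801 and 4.36 at 43851), ycf3 intron 2 (4.38 at 42851 and 4.30 at 42801) and the matK part of the trnK intron (4.15 at 2151 and 4.11 at 2101), each position being the first base of a window. The windows at 76701, 42851 and 2101 had WT means under 10 and passed the filter through their dPPRrbcL coverage. The WT replicates disagreed in some of the windows with high changes. At 77001 in petD, the gene of subunit IV of the cytochrome b6f complex, WT replicate 1 had 29.6 and WT replicate 2 had 2.00 reads per nucleotide, against 644 and 603 in dPPRrbcL, and the median-ratio value of 1.88 did not pass (SE 1.00, limma adjusted p = 0.205). Low changes were found in clpP intron 1 (0.98 at 71751 and 1.17 at 71701) and in trnL (1.09 at 46951). All 3 of these windows lie within the first 111 bases of their intron, and all 3 had negative values by median ratio (-2.42, -2.22 and -2.19). The highest window of all was in the trnA intron in both groups: 2902 and 2722 reads per nucleotide at 103801 in WT, and 9946 and 8741 at 103751 in dPPRrbcL.

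The ratio of an intron to its own exons needs no scaling between libraries. It was the mean coverage of the intron windows over that of the exons of the gene, for rps12 only the exons at both sides of its cis-spliced intron. Introns were tested if their mean coverage was at least 10 with no 0 in any library, which left 19 of 20. The introns of rpoC1, ycf3 intron 2 and rpl16 had WT means under 10 and passed through their dPPRrbcL coverage. The median ratio over the 19 was 0.911 in WT and 0.882 in dPPRrbcL.

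Introns stood both above and below their exons in each group. In WT, 5 of the 19 (26.3%) were above their exons and 5 (26.3%) below at a limma adjusted p under 0.05. In dPPRrbcL, 4 (21.1%) were above and 7 (36.8%) below. The rps12 intron, in a gene for a small-subunit ribosomal protein whose 5′ exon is joined by trans-splicing, was lowest in WT at a log2 ratio of -3.73. It was followed by rpl16 (-1.79), a large-subunit ribosomal protein gene, ycf3 intron 2 (-1.77), clpP intron 1 (-0.84) and trnI (-0.41). Above their exons in WT stood trnV (1.93), trnG (1.28), petB (1.24), ycf3 intron 1 (0.69) and trnL (0.44), each with an SE of 0.18. That SE was pooled over all introns and both groups, so it does not show the spread of a single intron. In trnL the WT replicates lay at log2 ratios of 0.80 and 0.09, over exons with 8.40 and 11.9 reads per nucleotide. In dPPRrbcL, trnV (1.77), trnG (1.34), trnK (1.23), the gene of the lysine tRNA, and rpl2 (0.47), a large-subunit ribosomal protein gene, stood above their exons. Below them stood rps12 (-2.31), rpl16 (-2.30), clpP intron 1 (-1.97), ycf3 intron 2 (-1.40), atpF (-1.13), clpP intron 2 (-0.89) and petD (-0.78). The exons of the split tRNA genes sum to only 72 to 85 nt, so their mean rests on few positions.

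**Figure D2:**
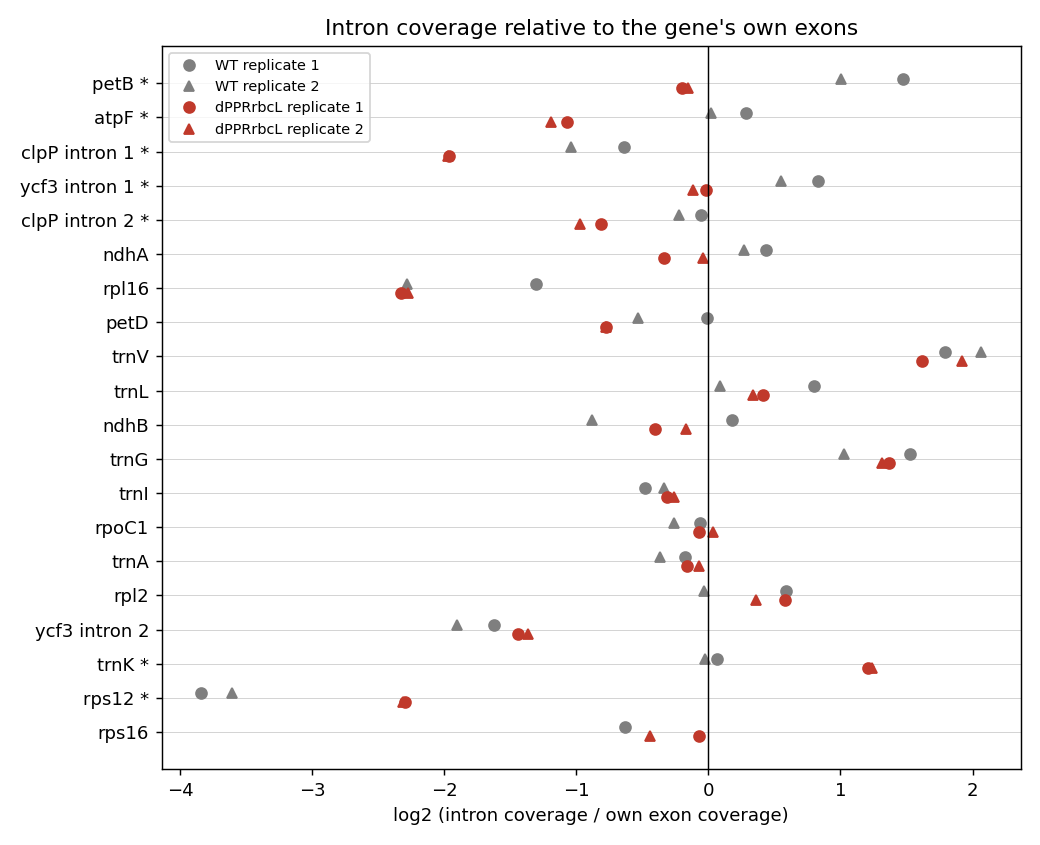
Log2 of intron coverage over the coverage of the gene's own exons, for each library; grey points are WT and red points dPPRrbcL, circles replicate 1 and triangles replicate 2, and a star marks an adjusted p under 0.05 between the groups (limma, 19 introns; rps16 was not tested). In petB, atpF, the clpP introns and ycf3 intron 1 both red points lie left of both grey points, and in trnK and rps12 they lie right of them.

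Between the groups the ratio fell in 5 introns and rose in 2. Of the 19 introns, 26.3% were lower and 10.5% higher in dPPRrbcL at an adjusted p under 0.05 (limma), and the median log2 change of the ratio was -0.07. All 7 called introns had groups that did not overlap, as had 5 of the 12 others. Those that fell were petB, atpF, clpP introns 1 and 2 and ycf3 intron 1, and those that rose were trnK and rps12. The SE was 0.25 for every intron, because limma pooled the spread fully over the introns. Without WT replicate 2 the count that fell was 8, without either dPPRrbcL replicate it was 2, and without WT replicate 1 the count that rose was 4. By subgroup, 2 of 8 IIA introns fell and 2 rose, and 3 of 10 IIB introns fell and 0 rose.

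The petB intron showed the largest fall. Its coverage was 422 and 399 reads per nucleotide in WT, and 1715 and 1581 in dPPRrbcL. Its exons had 152 and 199 in WT, and 1965 and 1760 in dPPRrbcL. The intron thus stood above the exons in both WT libraries, at ratios of 2.77 and 2.00, and just below them in both dPPRrbcL libraries, at 0.873 and 0.898. The log2 change of the ratio was -1.41 (SE 0.25, limma adjusted p = 1.65e-05). Taking medians over positions in place of means ended the call (-0.80, limma adjusted p = 0.102).

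In atpF the exons gained more than in any other intron-containing gene tested, and the intron gained less. The intron had 141 and 156 reads per nucleotide in WT, and 2300 and 2032 in dPPRrbcL. The exons had 116 and 154 in WT, and 4845 and 4642 in dPPRrbcL. From near parity in WT (ratios of 1.22 and 1.01) the intron went to less than its exons in dPPRrbcL (0.475 and 0.438), with no overlap between the groups. On library totals the log2 change was 3.76 for the intron and 5.04 for the exons, and that of the ratio was -1.29 (SE 0.25, limma adjusted p = 5.40e-05). The call held under every alternative tried.

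Both clpP introns lost coverage relative to the exons they share. Intron 1 had 28.0 and 24.6 reads per nucleotide in WT and 130 and 126 in dPPRrbcL. Intron 2 had 41.9 and 43.5 in WT and 287 and 251 in dPPRrbcL. The exons had 43.5 and 50.7 in WT and 505 and 493 in dPPRrbcL. Both introns were lower relative to the exons in the 2 dPPRrbcL libraries than in the 2 WT libraries, with ratios of 0.257 and 0.255 against 0.643 and 0.486 for intron 1, and of 0.568 and 0.509 against 0.963 and 0.859 for intron 2. The log2 changes of the ratio were -1.13 (limma adjusted p = 0.000233) and -0.76 (limma adjusted p = 0.0119). These calls were lost without dPPRrbcL replicate 1 (-1.13, limma adjusted p = 0.0514, and -0.84, limma adjusted p = 0.182) and without dPPRrbcL replicate 2 (-1.12, limma adjusted p = 0.0545, and -0.68, limma adjusted p = 0.283). Medians over positions ended them too (-0.57 and -0.06), and the 50 nt at each side of the splice sites ended that of intron 2 (-0.41, limma adjusted p = 0.117).

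The introns of ycf3 differed from each other. Intron 1 had 51.1 and 44.9 reads per nucleotide in WT and 830 and 741 in dPPRrbcL, while intron 2 had 9.31 and 8.17 in WT and 310 and 312 in dPPRrbcL. The shared exons had 28.8 and 30.6 in WT and 842 and 804 in dPPRrbcL. Intron 1 stood above the exons in WT, at 1.78 and 1.47, and at their level in dPPRrbcL, at 0.985 and 0.922, and the ratio changed by -0.76 on the log2 scale (SE 0.25, limma adjusted p = 0.0119). Intron 2 was below the exons in all 4 libraries, at 0.324 and 0.267 in WT and at 0.369 and 0.388 in dPPRrbcL, and its change of 0.36 did not pass (limma adjusted p = 0.266). The call of intron 1 was lost without dPPRrbcL replicate 1 (-0.81, limma adjusted p = 0.182), without dPPRrbcL replicate 2 (-0.71, limma adjusted p = 0.283) and with medians over positions (-0.72, limma adjusted p = 0.102). With only the 50 nt at each side of the splice sites it was 0.34 and not called.

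In rps12 the intron rose more than its exons and stayed far below them. The intron had 19.2 and 21.8 reads per nucleotide in WT and 247 and 249 in dPPRrbcL. The exons had 276 and 266 in WT and 1215 and 1239 in dPPRrbcL. The ratio was 0.0696 and 0.0818 in WT and 0.203 and 0.201 in dPPRrbcL, with no overlap, and its log2 change was 1.42 (SE 0.25, limma adjusted p = 1.65e-05). On the 50 nt at each side of the splice sites the change was 0.16 and did not pass (limma adjusted p = 0.282). The gene lies in the inverted repeat, so its reads could come from either copy.

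The trnK intron rose above its exons, and much of it is also matK. The intron had 44.9 and 47.7 reads per nucleotide in WT and 517 and 469 in dPPRrbcL, and the exons, 72 nt in all, had 43.1 and 48.7 in WT and 223 and 199 in dPPRrbcL. Intron and exons were level in WT, at ratios of 1.04 and 0.981, and the intron was higher in dPPRrbcL, at 2.31 and 2.36. The log2 change of the ratio was 1.21 (SE 0.25, limma adjusted p = 0.000107). The 31 windows that overlap matK averaged 25.6 and 32.0 reads per nucleotide in WT and 494 and 438 in dPPRrbcL, while the 19 windows outside it averaged 76.5 and 73.5 in WT and 555 and 519 in dPPRrbcL. The median window changed by 3.65 inside matK and by 2.64 outside it on library totals, and 11 of the 12 lower windows by median ratio lay outside matK. Without the matK windows the change of the ratio was 0.64 (limma adjusted p = 0.0418), and on the 50 nt at each side of the splice sites it was -0.14 and not called.

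The other 12 introns gave ratio changes between -0.54 and 0.36 that did not pass, and 3 of them had an unadjusted p under 0.05 in limma. These were ndhA (-0.54, limma adjusted p = 0.0861), which encodes a subunit of the NADH dehydrogenase-like complex, rpl16 (-0.51) and petD (-0.51, both limma adjusted p = 0.0948). With each library left out in turn, the change ranged from -0.996 to -0.0181 in rpl16 and from -0.77 to -0.25 in petD. Both were called without WT replicate 2 and with a pseudocount of 10, rpl16 also with all intron positions, and petD also without WT replicate 1, with a minimum coverage of 100 and at the splice sites. The ratio of ndhA was called with a pseudocount of 10 and with a minimum coverage of 100. In ndhA the ratio was 1.35 and 1.21 in WT and 0.794 and 0.970 in dPPRrbcL, without overlap. The introns of trnI and trnA stood below their exons in each library, and trnI was called below them in WT, as given above. Their ratios did not overlap between the groups and were higher in dPPRrbcL, although neither change passed. For trnI the ratio was 0.717 and 0.790 in WT and 0.803 and 0.836 in dPPRrbcL, and for trnA 0.885 and 0.774 in WT and 0.891 and 0.951 in dPPRrbcL. In ndhB, a further gene of the NADH dehydrogenase-like complex, the WT replicates differed from each other, at 1.13 and 0.543, by more than the groups did (0.757 and 0.888 in dPPRrbcL). A p that misses the threshold does not show that the ratios were equal: with an SE of 0.25, changes of the size seen in ndhA were not called.

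**Figure D3:**
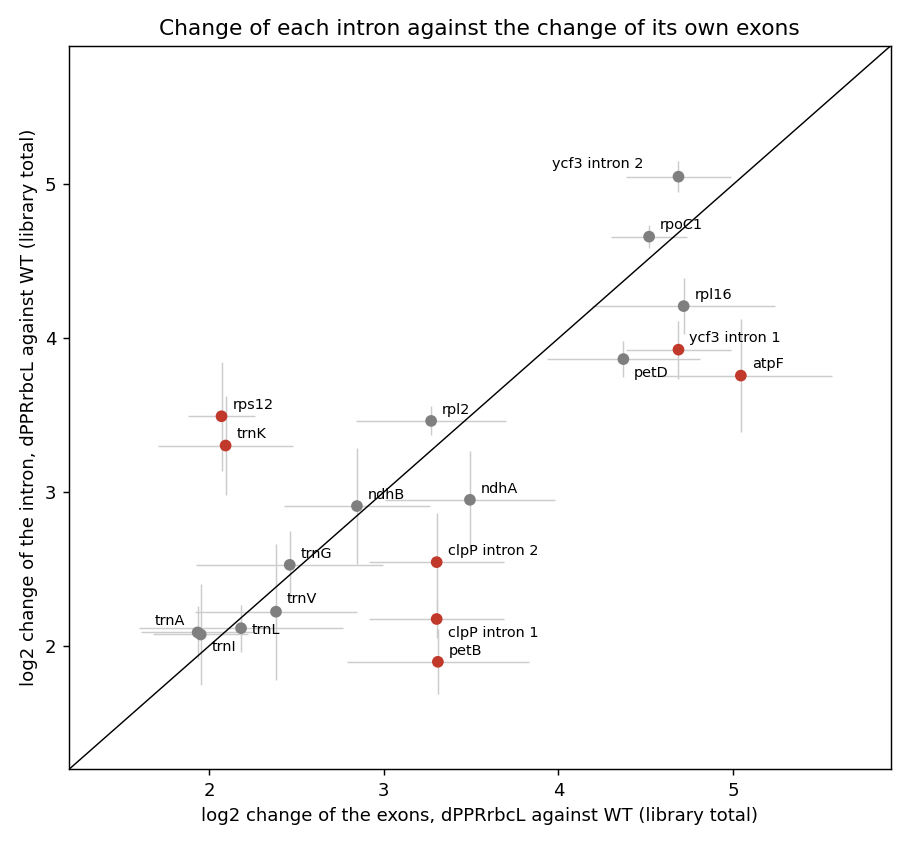
Log2 change of each intron (y axis) against that of its own exons (x axis), dPPRrbcL against WT on library totals; bars are the square root of the sum of both groups' variances on the log2 scale, red points passed an adjusted p under 0.05 in the test of the ratio, and the line marks equal change. Introns ranged from 1.90 (petB) to 5.05 (ycf3 intron 2), and rps12 and trnK lie farthest above the line.

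Plotted as intron change against exon change, the 19 introns spread along the line of equal change. The exons changed by 1.94 (trnA) to 5.04 (atpF) on library totals, with a median of 3.30, and the introns by 1.90 to 5.05, with a median of 2.95. Both quantities depend on the same library totals, so their spread along the line is a description. Introns with a large change lay in genes whose exons changed by much as well, as in rpoC1 (4.66 for the intron and 4.52 for the exons), and introns with a small change in genes such as trnI (2.08 and 1.95). petB lay off the line, with 1.90 for the intron and 3.31 for the exons.

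Coverage was not even along the introns. In WT the 5′ part was higher in many of them. When each intron was split into 3 equal parts, the mean of the first part over that of the last had a median of 1.94 over the 20 introns in WT and 1.11 in dPPRrbcL. In petB this quotient was 7.10 and 7.43 in WT and 1.52 and 1.42 in dPPRrbcL. In atpF it was 6.99 and 9.62 in WT and 2.18 and 1.94 in dPPRrbcL. In clpP intron 2 it was 5.74 and 5.16 in WT and 2.54 and 2.10 in dPPRrbcL, and in clpP intron 1 it was 2.94 and 2.67 in WT and 0.957 and 1.01 in dPPRrbcL. In trnK it was 3.15 and 2.77 in WT and 1.42 in both dPPRrbcL libraries. In ndhA the order was the opposite, with 0.213 and 0.0942 in WT and 0.375 and 0.296 in dPPRrbcL. The last part was the higher one in all 4 libraries in 6 introns: ndhA, ndhB, trnG, trnV, rpoC1 and rpl16. The first part was the higher one in both WT libraries in 11 of the 20 introns, and in both dPPRrbcL libraries in 10.

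The quotient was higher in both WT libraries than in both dPPRrbcL libraries in 13 of 20 introns (65.0%) and lower in 2 (10%), ndhB and ndhA. Protein-coding genes without introns of at least 500 nt, a comparison chosen after seeing the data, gave 19 of 31 (61.3%) and 6 (19.4%), so the count of introns is near that of other transcribed regions. The medians of those genes, 1.12 in WT and 1.08 in dPPRrbcL, were closer to each other than the medians of the introns, a difference that was not tested. Among the 31 is matK, which lies inside the trnK intron and counts among the 19, so the genes and the introns share some reads. By median ratio, 45 of 97 windows were lower in the first part, 22 of 104 in the middle part and 29 of 102 in the last. The share of lower windows among all windows tested was 19.0%, as given above. Higher were 6, 11 and 18, beside 19.5% of all windows tested. Only 13 of these 35 had a WT mean of at least 10, and the others passed the filter through their dPPRrbcL coverage. Nothing is therefore read from the order of the higher counts.

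**Figure D4:**
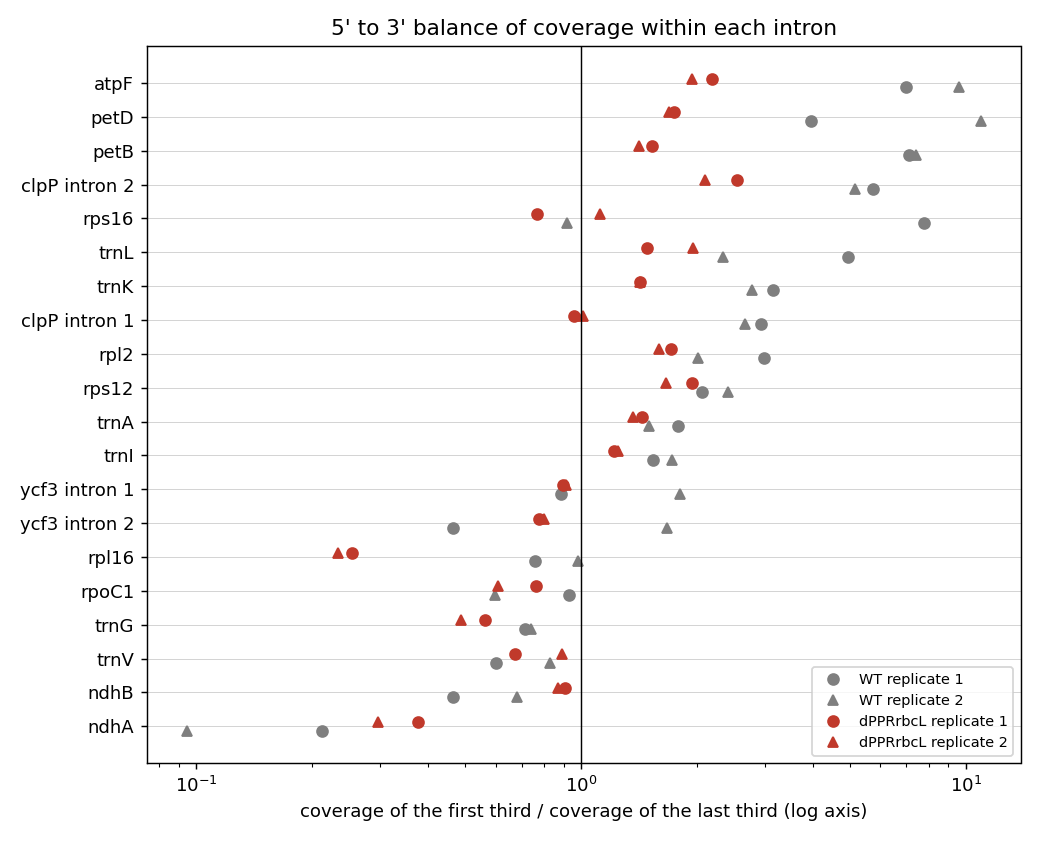
Mean coverage of the first of 3 equal parts of each intron over that of the last, in the direction of the gene, for each library on a log axis; grey is WT, red dPPRrbcL, circles replicate 1 and triangles replicate 2, and the line at 1 marks equal coverage. The grey points of atpF, petD and petB lie between 3.96 and 10.9, and the red points of these introns lie left of them, between 1.42 and 2.18.

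Profiles across the splice sites show where the intron left the level of its exons. In petB the highest base of the intron lay at 92 and 93 nt from the 5′ end in WT, and at 100 and 470 nt in dPPRrbcL. In atpF it lay at 105 and 75 nt in WT and at 75 nt in both dPPRrbcL libraries. A step at the 5′ splice site was seen in atpF in dPPRrbcL, where the 50 nt of exon before it had 9913 and 9500 reads per nucleotide and the 50 nt of intron after it 4447 and 3800. In WT the same stretches had 395 and 515 in the exon and 389 and 474 in the intron, without such a step. Over the introns, the intron side of the 5′ splice site was lower than the exon side in both libraries in 13 of 20 introns in dPPRrbcL and in 7 of the 18 with coverage in WT. At the 3′ splice site the intron side was lower in 14 of 20 introns in dPPRrbcL and in 13 of 19 in WT.

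**Figure D5:**
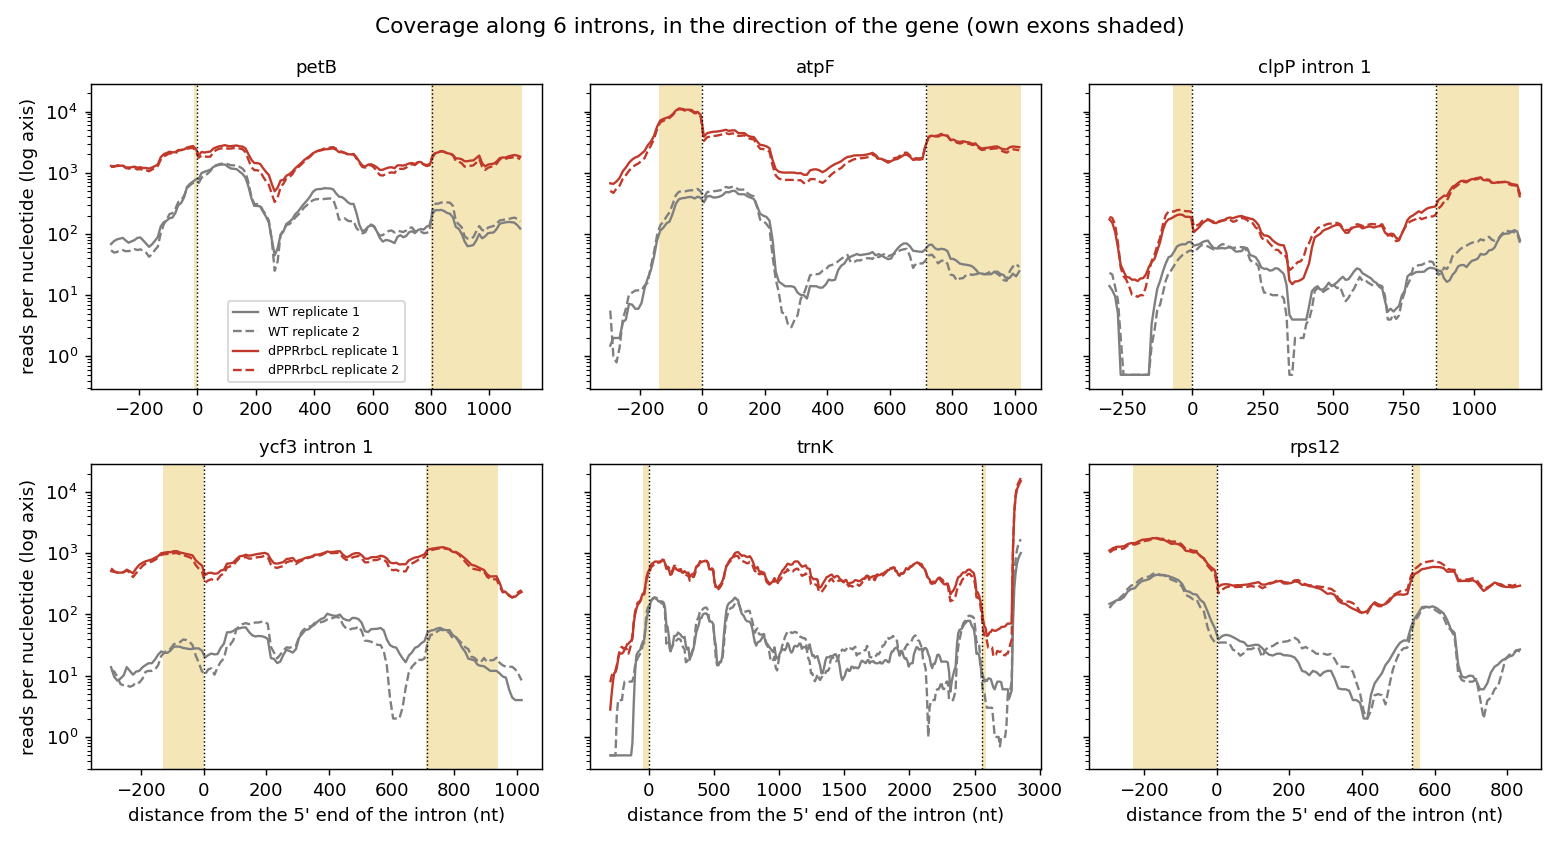
Coverage along 6 of the 7 introns with a called ratio, in reads per nucleotide (log axis, means of 10 nt, values under 0.5 drawn at 0.5) by distance from the 5′ end of the intron; grey lines are WT and red lines dPPRrbcL, solid for replicate 1 and dashed for replicate 2, own exons are shaded and dotted lines mark the splice sites. In petB the WT lines are highest near the 5′ end, where they come closest to the dPPRrbcL lines, and in atpF the dPPRrbcL lines drop at the 5′ splice site.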

How the data were processed

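RNA from HA immunoprecipitates of stroma was sequenced in 4 libraries, 2 per group, grouped by the sample titles. The authors deposited the coverage signal of every chloroplast position per library, in whole reads per nucleotide per the file headers, and neither headers nor labels mention a normalization. Per the labels' protocols, 50 ng of RNA per library were used with a NEBNext Ultra II RNA kit. The read mapper, build and strand setting are not given in the sources used here. The files hold 154478 positions, the length of the TAIR10.1 chloroplast sequence, whose RefSeq annotation and coordinates (1-based) were used. The annotation marks the exons, and introns are the gaps between adjacent exons of a gene. The inverted repeat spans 84171 to 110434 and 128215 to 154478, and the second copy was left out.

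Window means were divided by factors proportional to the library total, with a geometric mean of 1. A pseudocount of 10 was added, since a pseudocount in proportion to the library mean would exceed the WT coverage of most introns; fold changes of low windows are understated on this scale. limma 3.58.1 (lmFit, eBayes) in R 4.3.3 was used without covariates, for windows, for log2 intron-to-exon ratios (no pseudocount) between groups, and for group means of these ratios against 0, with Benjamini-Hochberg adjustment at 0.05 over all windows or introns tested. The fits were tested on simulated data. Other steps used Python 3.11.15, numpy 2.4.6, pandas 2.3.3, scipy 1.17.1 and matplotlib 3.10.9.

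Alternatives were other scalings, pseudocounts, filters, window sizes, exon definitions, an intensity trend, a replicate block, introns or windows left out, and each library left out. Single windows were named by a rule: the 10 highest and 5 lowest log2 changes on library totals, at most 2 per intron, and the highest window in each group. Introns past the threshold of the ratio test got full values. The introns, lists and tests were chosen with earlier results of these data known. Neighbouring positions share reads, and the number of libraries limits the precision. Replicates were distinct: they held the same value at 7.53% of intron positions in WT and 1.66% in dPPRrbcL, and the log2 ratio between replicates had an SD of 0.297 and 0.127 over 20 introns.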

Additional observations from a re-analysis of the deposited data

How the results depend on the processing

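The direction of the window changes depended on the scaling, and that of the 7 called intron-to-exon ratios on few settings. Where a value moved, the cause was not tested, except where fewer or more windows, introns or libraries entered by construction. Of 303 higher and 0 lower intron windows on library totals, 35 and 96 were called by median ratio, 139 and 44 with scaling to coverage outside rRNA and tRNA genes, and 620 of 25 nt or 140 of 100 nt were higher. Of the 303 windows, all above 0 on library totals, 175 were below 0 by median ratio and 94 with the other scaling. Among the windows named, 7 reversed, with median-ratio and outside-rRNA-and-tRNA values of -2.92 and -1.98 at 74901, -2.82 and -1.88 at 74851, -2.42 and -1.58 at 71751, -2.19 and -1.38 at 46951, -2.22 and -1.37 at 71701, -2.01 and -1.07 at 103751, and -2.15 and -1.21 at 103801. The replicate numbers did not pair the libraries (correlation of same-numbered deviations -0.06 over windows and 0.15 over ratios). With a replicate block these 14 values could not move, since each group holds both replicate numbers. The counts with the block were 43 and 96 or 132 and 32 under the same scalings, and the 7 ratio calls held. Ratios that fell numbered 1 with medians over positions, 8 with a pseudocount of 10 and 2 to 8 with a library left out. Ratios that rose numbered 0 at the 50 nt beside splice sites, 1 without tRNA genes, 1 without the inverted repeat, and 2 to 4 with a library left out. In WT, introns above their exons numbered 3 with medians and 2 without tRNA genes, and those below 3 with a minimum coverage of 100 or without the inverted repeat and 4 to 8 with a library left out. In dPPRrbcL, those below numbered 13 at splice sites and those above 1 without tRNA genes. The intron share was 0.0484% in WT and 0.376% in dPPRrbcL without trnI and trnA, and 3.20% and 3.53% of coverage outside rRNA and tRNA genes. Ratio changes that reversed and were not called were -0.30 (trnG) and 0.29 (trnL) with medians, -0.29 (ycf3 intron 2), 0.0846 (trnL), 0.32 (trnV) and -0.0477 (ndhB) with the pseudocount of 10, -0.14 (trnK), -0.10 (trnG), -0.31 (ycf3 intron 2), 0.34 (ycf3 intron 1), 0.0593 (rpl16), -0.11 (trnI) and 0.28 (ndhA) at splice sites, -0.10 (ndhB) with all intron positions, and 0.27 (trnL) without windows near exon borders. With each library left out in turn, the changes ranged from -0.18 to 0.31 (trnG), -0.42 to 0.29 (trnL), -0.12 to 0.50 (rpl2) and -0.47 to 0.59 (ndhB); of these ends, 0.31 in trnG and -0.42 in trnL kept the direction and were called. Of 307 ratio values under alternatives, 262 kept direction and side of the threshold, 12 lost their call, 13 gained one and 20 reversed. With 2 libraries per group, leaving out 1 left a lone library that was assumed to vary like the other group. WT coverage limits the ratios of rpoC1, rpl16, rps16 and ycf3 intron 2.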
